A study of Homo sapiens with 15 samples.

Results

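The loops described here are H3K4me3 HiChIP loops whose contact 72 h after androgen was at most 0.5 times that before androgen. They were chosen by these values: a loop had to belong to the H3K4me3 loop set, to hold at least 15 H3K4me3 read pairs at 0 m and to have a 72 h to 0 m contact ratio of 0.5 or less. Of the 278491 loops of the H3K4me3 set, 24889 (8.94%) held enough read pairs to be eligible, and 2055 of these were halved, which is 8.26% of the eligible loops and the background of the rule itself. The other 22834 eligible loops serve as the comparison below. The fall from 0 m to 72 h in H3K4me3 contact is the rule and not a finding, whereas every H3K27ac value and every difference among 30 m, 4 h and 16 h was measured in libraries that the rule did not use.

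Cells were LNCaP, an established androgen-responsive prostate cancer line, kept for 3 days in medium with charcoal-stripped serum, which holds little steroid hormone. They then received 10 nM dihydrotestosterone (DHT), a natural androgen, for 30 m, 4 h, 16 h and up to 72 h, while the 0 m samples received the ethanol vehicle. The labels name 15 samples of this line and no genetic change, with 2 replicates per time point for H3K27ac and 1 for H3K4me3. Vehicle was sampled at 0 m and not at 72 h, so time in culture and time in androgen cannot be told apart.

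HiChIP ligates DNA ends that are near each other in fixed nuclei, enriches the ligated fragments with an antibody to a histone modification and sequences both ends of each. H3K4me3 marks the nucleosomes at active gene starts, so its loops mostly run from promoters. H3K27ac marks active enhancers as well as promoters. A contact value therefore depends both on how often the 2 anchors met and on how much of the mark they carried, and the 2 contributions cannot be told apart in these data. The deposited contact is a single value per loop, mark and time point, which the authors made comparable between the 5 libraries of each mark by TMM scaling, a trimmed-mean method. Each value was a whole number of read pairs times a fixed step, so the read pairs were recovered. The 95% intervals of contacts, ratios and changes below were computed from those read pairs. They cover counting error only, since no value has a replicate. Intervals of shares are binomial over loops, or over anchor bins for motifs. They take these as independent draws, although many loops share an anchor.

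The H3K4me3 libraries held 1560331 to 7765833 read pairs in the H3K4me3 loops, with the most at 4 h, and the H3K27ac libraries 1095140 to 2090621. Luminal prostate markers fitted the label: the promoters of KRT8, KRT18, KLK3, HOXB13 and FOXA1 had 7 to 50 loops of the set each, and a summed H3K4me3 contact of 39.5 to 128 at 0 m. KRT8 and KRT18 share 1 window. Of the basal markers, TP63, KRT5 and KRT14 had no loop and KRT15 had 1, with a contact of 0.282.

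Sequences of 5 promoters of genes at the ends of halved loops are shown for their CpG content. Of these stretches, 4 overlap the 5 kb bin of the loop's end, and that of ARID1A lies outside it, within the promoter window. The first pair belongs to the loop with the most read pairs, that of ARID1A to the loop with the lowest upper bound of its ratio, and the last pair to the loop with the most read pairs among those that were also halved in H3K27ac. Each is the 250 bases before the annotated gene start (the outermost transcript of Gencode release 44 lifted to GRCh37), read 5′ to 3′ on the gene's strand, with every CpG in capitals. CpG is the dinucleotide that stays dense at most promoters of widely used genes and is thinned out elsewhere.
DVL2, chr17:7137837-7138086, minus strand: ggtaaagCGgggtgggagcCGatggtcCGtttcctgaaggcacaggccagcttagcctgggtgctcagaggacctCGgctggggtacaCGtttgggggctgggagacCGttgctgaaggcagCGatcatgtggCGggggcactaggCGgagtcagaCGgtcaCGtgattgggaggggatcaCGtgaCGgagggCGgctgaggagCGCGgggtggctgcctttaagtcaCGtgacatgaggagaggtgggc
PHF23, chr17:7143042-7143291, minus strand: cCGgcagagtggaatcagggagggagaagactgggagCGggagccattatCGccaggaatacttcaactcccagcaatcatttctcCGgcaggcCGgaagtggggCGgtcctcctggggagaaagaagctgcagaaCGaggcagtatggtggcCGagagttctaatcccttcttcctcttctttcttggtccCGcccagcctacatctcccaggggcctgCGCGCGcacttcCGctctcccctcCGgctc
ARID1A, chr1:27019477-27019726, plus strand: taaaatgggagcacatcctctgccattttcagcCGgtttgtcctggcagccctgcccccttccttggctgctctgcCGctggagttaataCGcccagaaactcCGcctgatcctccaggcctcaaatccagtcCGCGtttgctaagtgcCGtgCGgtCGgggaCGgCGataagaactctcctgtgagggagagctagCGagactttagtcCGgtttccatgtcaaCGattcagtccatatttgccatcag
CDT1, chr16:88869947-88870196, plus strand: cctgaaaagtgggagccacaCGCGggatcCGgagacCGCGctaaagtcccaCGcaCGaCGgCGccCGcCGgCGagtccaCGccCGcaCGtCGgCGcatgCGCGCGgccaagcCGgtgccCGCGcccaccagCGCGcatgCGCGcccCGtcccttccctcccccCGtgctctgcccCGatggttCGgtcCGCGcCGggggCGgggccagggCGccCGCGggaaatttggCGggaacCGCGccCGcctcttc
APRT, chr16:88878346-88878595, minus strand: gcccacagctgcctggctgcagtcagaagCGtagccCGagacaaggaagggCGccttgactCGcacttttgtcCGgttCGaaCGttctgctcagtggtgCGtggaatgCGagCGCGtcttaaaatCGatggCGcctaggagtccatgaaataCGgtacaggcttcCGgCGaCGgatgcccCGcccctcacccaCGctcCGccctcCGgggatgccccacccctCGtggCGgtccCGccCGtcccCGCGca
These stretches held 17, 14, 14, 42 and 27 CpG in the order printed, and 64.4%, 60.8%, 55.6%, 76.4% and 65.6% G or C. Over all 20149 coding genes the median was 14 CpG and 59.6%. The 2342 genes with a halved loop had a median of 20 CpG (quartiles 13 and 27) and 64.4% G or C, and the 7891 genes with an eligible loop and no halved loop had 19 CpG (12 and 26) and 63.2%. The promoters of halved loops are thus CpG-rich, as those of eligible loops were in general. None of the 5 stretches holds the palindrome GNACANNNTGTNC searched for as an androgen response element or the forkhead motif TGTTTAC. The DVL2 stretch holds CACGTG 3 times, as did 17 of 20176 coding gene starts (0.0843%), a motif looked for after the sequence was seen.

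Over all 2055 halved loops, mean H3K4me3 contact at the 5 times, from 0 m to 72 h, was 7.80, 6.06, 7.03, 6.10 and 3.28, from 56839, 36464, 182277, 64896 and 24494 read pairs. The 0 m and 72 h values are the ones the loops were selected on. In the other eligible loops the means were 11.5, 12, 13.8, 12.4 and 9.40. Both sets stood higher at 4 h than at 30 m under the deposited scaling, as did all 278491 loops of the set, by 0.21 on the log2 scale. Scaled to equal totals, the halved loops lay at -0.42 at 30 m and -0.41 at 4 h against 0 m, so that no rise between these times was left.

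Among the 3 times the rule did not use, the halved loops moved almost as the other loops did. From 30 m to 4 h their H3K4me3 contact was higher by 0.21 (log2) in both sets, with a difference of 0.01 (95% interval -0.01 to 0.02). From 30 m to 16 h the halved loops changed by 0.01 (-0.01 to 0.03) and the others by 0.06, a difference of -0.05 (-0.06 to -0.03). From 4 h to 16 h the changes were -0.20 and -0.15. Over all loops of the set the same 3 changes were 0.21, 0.08 and -0.13, which scaling to equal totals would take off both sets alike. Changes against 0 m share that library with the rule and are given only as values: -0.36, -0.15 and -0.35 for 30 m, 4 h and 16 h in the halved loops, or -0.42, -0.41 and -0.48 with equal totals.

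Single loops followed several courses before 72 h. The 72 h contact was the lowest of the 5 in 1746 of 2055 halved loops (85.0%) and the 0 m contact the highest in 1210 (58.9%), against 48.0% and 19.2% of the other eligible loops. Contact was highest at 4 h in 482 (23.5%), against 38.7% of the others. A contact at or below 0.5 of 0 m was already present at 30 m in 357 halved loops (17.4%, against 5.03% of all eligible loops), at 4 h in 219 (10.7%, against 2.68%) and at 16 h in 268 (13.0%, against 2.71%). Those comparisons use the same 0 m value as the rule, so nothing is read from the excess.

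The depth of single loops sets how firmly each can be called. The halved loops held a median of 20 read pairs at 0 m (quartiles 16 and 28, highest 618) and of 8 at 72 h (7 and 12). Their ratios had a median of 0.426 (quartiles 0.359 and 0.462), and 1278 of them (62.2%) lay above 0.4. The counting interval of the ratio lay wholly below 1 in 1361 loops (66.2%) and wholly below 0.5 in 13 (0.633%). None had 0 read pairs at 72 h. These intervals do not account for the selection of the loops on the same values.

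**Figure D1:**
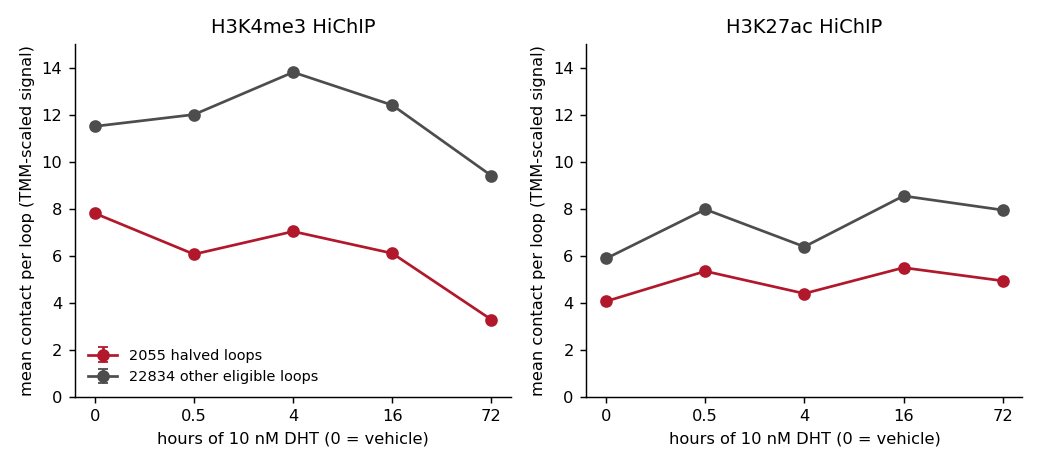
Mean contact per loop (TMM-scaled signal) at 5 times of DHT in the 2055 halved loops and the 22834 other eligible loops, for H3K4me3 on the left and H3K27ac on the right, with 95% counting intervals that are mostly smaller than the points. The H3K4me3 line of the halved loops drops to 3.28 at 72 h by selection, while their H3K27ac line ends at 4.93, above the 4.06 at 0 m under the deposited scaling.

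Summed H3K27ac contact of the same loops was higher after DHT than before it, but for 4 h, 16 h and 72 h the direction depended on the scaling and on the loops that carried the sum. Mean H3K27ac contact of the halved loops over the same 5 times was 4.06, 5.34, 4.39, 5.49 and 4.93, from 28399, 60947, 42249, 53112 and 38496 read pairs. As log2 changes from 0 m these are 0.39 (0.37 to 0.41), 0.11 (0.09 to 0.14), 0.43 (0.41 to 0.46) and, for 72 h, 0.28 (0.26 to 0.30). All 4 later times thus lay above 0 m in these sums under the deposited scaling. In the 1603 halved loops of 20 kb or more the changes were 0.34, -0.02 (-0.05 to 0.01), 0.22 and 0.16, so that the interval of the 4 h value included 0. The medians over the halved loops with any H3K27ac read pair at 0 m were 0.29, 0.05, 0.10 and 0.09. The scaling matters, since over all 278491 loops of the set H3K27ac contact was itself higher by 0.23, 0.04, 0.32 and 0.25 at these times. Relative to that shift the halved loops stood 0.17, 0.07, 0.11 and 0.03 higher, as scaling to equal totals gives. With equal totals the loops of 20 kb or more stood at 0.11 (0.08 to 0.14), -0.06 (-0.09 to -0.02), -0.10 (-0.13 to -0.07) and -0.08 (-0.12 to -0.05). The medians over the halved loops with any H3K27ac read pair at 0 m then stood at 0.07, 0.02, -0.22 and -0.16. Most later values thus lay below 0 in these alternatives, which were chosen after seeing the data. That scaling takes 0.25 off every H3K27ac change at 72 h given below, so that changes smaller than 0.25 turn negative under it.

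In summed contact the other eligible loops gained more H3K27ac at 30 m, 16 h and 72 h. Their log2 changes at the 4 later times were 0.44, 0.12, 0.54 and 0.43, and this comparison does not depend on the scaling. The halved loops differed from them by -0.04 (-0.07 to -0.02), -0.00 (-0.03 to 0.02), -0.10 (-0.13 to -0.08) and -0.15 (-0.18 to -0.13) at the 4 times. The gap was outside counting error at 30 m, 16 h and 72 h and within it at 4 h, and was widest at 72 h. Replicate error is not known for any of them.

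Shared loops and H3K4me3-only loops gave the same order. Of the halved loops 1147 (55.8%) were also called in the H3K27ac set, as were 54.2% of the other eligible loops. In these 1147, H3K27ac contact at 72 h was higher by 0.35 (0.32 to 0.38) against 0.52 in the others, a difference of -0.17 (-0.20 to -0.15). In the 908 called from H3K4me3 alone it was higher by 0.12 (0.08 to 0.16) against 0.26, a difference of -0.14 (-0.18 to -0.10).

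Loop by loop, the H3K27ac change ran in both directions. The halved loops were thin in H3K27ac, with a median of 7 read pairs at 0 m, and 485 of them held at least 15. Of these 485, 256 (52.8%) were higher at 72 h than at 0 m, with a median log2 change of 0.03 (quartiles -0.43 and 0.48), against 62.7% and a median of 0.22 in 9587 other eligible loops. H3K27ac contact was also halved at 72 h in 44 of the 485 (9.07%, exact binomial interval 6.67 to 12), beside 5.64% of all 10072 eligible loops with as many H3K27ac read pairs. It was doubled or more in 32 (6.60%, 4.56 to 9.19), beside 11.3% of the 10072. With equal totals 66 of the 485 (13.6%) were halved and 15 (3.09%) doubled, against 8.96% and 5.90% of the other eligible loops. Halving in both marks was thus more frequent and doubling less frequent than in the background, but most of the loops that were halved in H3K4me3 and measurable in H3K27ac were not halved in the latter.

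Part of the halving in H3K27ac lies in thin loops. With 15 to 29 H3K27ac read pairs at 0 m, 36 of 304 halved loops (11.8%, 8.43 to 16.0) were halved in H3K27ac too, against 7.70% of the others. With 30 or more, 8 of 181 (4.42%, 1.93 to 8.52) were, against 2.40% (1.95 to 2.92), and these intervals overlap. Doubling in the deeper class was seen in 16 of 181 (8.84%, 5.14 to 14) against 14.3%.

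**Figure D2:**
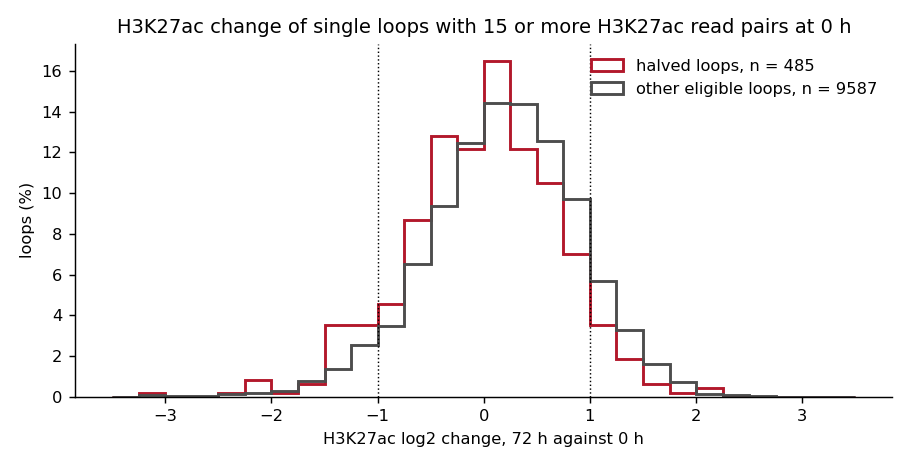
H3K27ac log2 change from 0 h to 72 h of single loops with 15 or more H3K27ac read pairs at 0 h, as percent of 485 halved loops and of 9587 other eligible loops in steps of 0.25, with dotted lines at 2-fold lower and higher. The 2 outlines overlap over their whole range, and the halved loops lie slightly to the left, with a median of 0.03 against 0.22.

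Halved loops were longer than the other eligible loops. Loop length is the distance between the 2 anchors in steps of 5 kb and was not used by the rule. Its median was 50 kb in the halved loops (quartiles 20 and 105, longest 970 kb) and 20 kb in the others (10 and 50, longest 1075 kb), while all loops of the set had a median of 230 kb because most long loops held too few read pairs to be eligible. The share of eligible loops that were halved was 3.97% (3.48 to 4.50) for neighbouring bins, 3.53% at 10 kb, 5.69% at 15 to 20 kb, 8.70% at 25 to 50 kb, 13.8% at 55 to 100 kb, 17.2% at 105 to 200 kb and 17.8% (15.3 to 20.4) above 200 kb. From 10 kb on the share was higher in each longer class, and the intervals of the last 2 overlapped.

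Length moved together with depth. The share of halved loops was 13.1% among eligible loops with 15 to 19 read pairs at 0 m, 8.99% with 20 to 29, 5.46% with 30 to 49, 3.52% with 50 to 99 and 2.07% with 100 or more. Among halved loops with at least 30 read pairs at 0 m, of which there were 444, the median length was 20 kb. How much of the length difference goes with depth was not tested.

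GC content moved with the halved loops as well. In 5 equal classes of the G and C content of the anchor bins, from 31.6-43.9% up to 54.5-69.6%, the share of eligible loops that were halved was 5.56%, 6.44%, 7.88%, 9.87% and 11.5%. In loops of at most 20 kb the shares were 3.51%, 3.27%, 4.10%, 5.77% and 6.53%, with the second class the lowest, and in longer loops 10.0%, 10.4%, 11.2%, 13.0% and 15.7%. The log2 change in H3K4me3 contact at 72 h over all eligible loops, halved ones included, was -0.20, -0.24, -0.31, -0.39 and -0.49 in the 5 classes. These are the values the rule selected on, so they are a description and support nothing, and the part of GC content in the choice of the halved loops was not tested. Halved loops had a median of 50.8% G and C and 139 CpG per 5 kb bin, against 48.5% and 127 in the others, and both had a median of 15 sites of MboI (GATC), the enzyme that cut the chromatin.

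**Figure D3:**
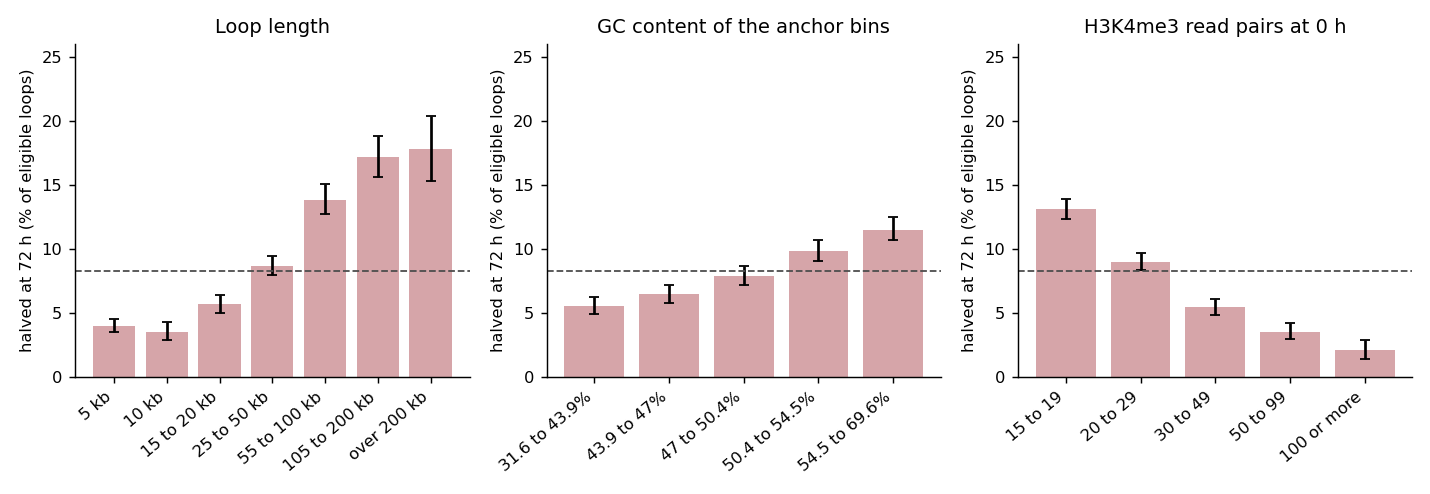
Share of eligible loops that were halved at 72 h (%), by loop length, by GC content of the 2 anchor bins and by H3K4me3 read pairs at 0 h, with exact 95% binomial intervals and a dashed line at the 8.26% of all eligible loops. The bars stand at 3.97% for 5 kb and 3.53% for 10 kb and climb from there to 17.8% over 200 kb, they climb with GC content from 5.56% to 11.5%, and they drop with read pairs from 13.1% to 2.07%.

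The smaller gain in H3K27ac was not the same in every class of loops. Between neighbouring bins the halved loops changed by 0.45 and the others by 0.61 at 72 h, a difference of -0.16 (-0.20 to -0.13). At 10 kb the difference was -0.08 (-0.16 to 0.01) and at 15 to 20 kb -0.06 (-0.13 to 0.00), with intervals that reached 0. The difference was -0.13 (-0.19 to -0.07) at 25 to 50 kb, 0.00 (-0.06 to 0.07) at 55 to 100 kb, -0.10 (-0.18 to -0.02) at 105 to 200 kb and -0.13 (-0.25 to -0.01) over 200 kb. Averaged within the 7 length classes it was -0.11 (-0.14 to -0.09), and within the 5 GC classes -0.11 (-0.13 to -0.08). In the most GC-rich class the 2 sets changed almost alike, by 0.23 and 0.24, while in the second lowest class they changed by 0.28 and 0.55. Within classes of H3K4me3 read pairs at 0 m the average was -0.08 (-0.10 to -0.06), and the direction turned in the class of 30 to 49 read pairs, where the halved loops gained 0.08 (0.03 to 0.13) more. In the class of 15 to 19 read pairs, with 990 of the 2055 halved loops, the changes were 0.23 and 0.24, a difference of -0.01 (-0.05 to 0.04). The difference was -0.09 (-0.14 to -0.05) at 20 to 29 read pairs, -0.29 (-0.35 to -0.23) in the 128 halved loops with 50 to 99 and -0.20 (-0.27 to -0.14) in the 33 with 100 or more.

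**Figure D4:**
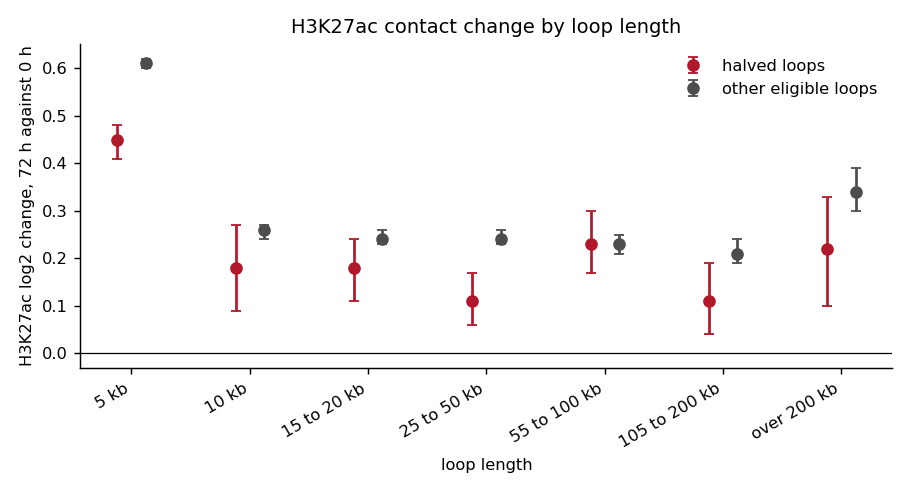
H3K27ac log2 change from 0 h to 72 h of summed contact in 7 classes of loop length, for halved loops and other eligible loops, with 95% counting intervals. Every point lies above 0 under the deposited scaling (equal totals would lower each by 0.25), and the halved loops lie below the others except at 55 to 100 kb, where the difference was 0.00. The interval of the difference also reached 0 at 10 kb and at 15 to 20 kb.

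Most halved loops started at a promoter. A protein-coding promoter, taken as 2.5 kb on either side of the gene start, overlapped at least 1 anchor in 1749 halved loops (85.1%, 83.5 to 86.6), against 86.4% of the other eligible loops. Loops between 2 promoters made up 548 (26.7%, 24.8 to 28.6) against 23.3%, loops from a promoter to another place 1201 (58.4%) against 63.1%, and loops without a promoter 306 (14.9%) against 13.6%. Of the 1201 anchors opposite a promoter, 571 (47.5%) lay in introns, 317 (26.4%) outside coding genes, 165 (13.7%) in coding exons and 148 (12.3%) in untranslated regions. Non-coding genes were not annotated. Both anchors touched the same gene in 606 halved loops (29.5%) against 47.4% of the others, which are shorter. H3K27ac contact at 72 h was higher by 0.19 (0.16 to 0.22) in halved loops from a promoter to another place, against 0.42 in the others, and by 0.24 (0.19 to 0.28) between 2 promoters, also against 0.42. Loops without a promoter were nearly alike, at 0.44 (0.40 to 0.48) against 0.49, a difference of -0.05 (-0.09 to -0.01).

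Motif searches in the anchor bins gave small differences. The letters CCANNAGNNGGC, the core of the CTCF motif, were present on either strand in 840 of 3610 bins of halved loops (23.3%, 21.9 to 24.7), 18.5% of bins used only by other eligible loops and 19.1% of all eligible bins. CTCF is the protein that holds many loop ends in place. In loops over 20 kb the shares were 24% (22.3 to 25.7) and 20.7% (20 to 21.5), and in shorter loops 22.7% (20.3 to 25.2) and 18.2%. The androgen response element palindrome GNACANNNTGTNC was present in 5.32% (4.61 to 6.10) of the bins of halved loops, 6.36% of the other bins and 6.22% of all, and the forkhead motif TGTTTAC in 41.4%, 47.6% and 46.7%. Halved loops had the higher G and C content given above, and its part in these shares was not tested.

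Matches of the CTCF core near 3 of the 8 loops with the lowest upper bounds show what was counted. The match is in capitals within 30 bases of GRCh37.
Anchor bin in SRCIN1, chr17:36713679-36713708, plus strand: cctgtgtcaCCAAGAGAGGGCccaaaggaa
Anchor bin in SLC30A5, chr5:68403134-68403163, minus strand: ggaggtaccCCAGAAGAAGGCattgttata
Anchor bin in MYO1H, chr12:109866000-109866029, plus strand: gtagatctgCCACCAGGGGGCagccgtggg
All 3 lie at the end away from the promoter. A match is a run of letters and not a measured binding site.

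The halved loops were spread over the genome unevenly. Their share among eligible loops was highest on chromosomes 21 (13.8%, 9.66 to 18.8), 17 (11.4%, 10.0 to 12.8) and 19 (11.2%, 9.93 to 12.5), and lowest among the autosomes on chromosomes 18 (3.64%), 13 (5.02%) and 4 (5.15%). An anchor within 5 Mb of a chromosome end was found in 452 (22%, 20.2 to 23.8) against 16.0% of the others. They used 3610 different anchors, and 802 of them (39.0%) shared an anchor with another halved loop, so they are not independent of each other. There were 1253 lone loops, 211 pairs and 97 larger groups.

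The strongest halved loop joined the neighbouring bins of DVL2 and PHF23 on chromosome 17 (chr17:7137001-7138000 and chr17:7142001-7143000). DVL2 passes on Wnt signals, and PHF23 carries a PHD finger that binds H3K4me3. Its H3K4me3 read pairs over the 5 times were 618, 509, 2880, 779 and 315, as contacts 174, 174, 228, 151 and 86.6. Its ratio of 0.497 (0.432 to 0.570) puts it just inside the limit. H3K27ac went the other way, from a contact of 106 at 0 m to 188, 119, 287 and 231, a log2 change of 1.12 (0.94 to 1.3) at 72 h. With equal totals its H3K4me3 ratio was 0.548. Under that scaling the 8 loops with the most read pairs had ratios of 0.487 to 0.550, and only the loop from CDT1 to APRT stayed within the limit of 0.5.

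All of the 8 strongest loops joined neighbouring bins, 5 kb apart, whose G and C content was 55.2% to 65.3%. The loop from the shared promoter of NTHL1, a base excision repair enzyme, and TSC2, which restrains mTORC1, into a TSC2 intron had H3K4me3 contacts of 91.1, 73.1, 90.3, 69.8 and 44, and an H3K27ac change of -0.30 (-0.81 to 0.20).

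CDT1 and APRT gave the clearest loop that was low in both marks. CDT1 loads the replicative helicase onto DNA before S phase, and APRT salvages adenine. Their loop (chr16:88872001-88873000 and chr16:88877001-88878000) had 254, 185, 856, 396 and 115 H3K4me3 read pairs, as contacts 71.6, 63.2, 67.8, 76.5 and 31.6, with a ratio of 0.441 (0.351 to 0.552). It kept its contact up to 16 h and was low only at 72 h. H3K27ac contact was 33.8, 59.0, 47.6, 26.5 and 16.1, a log2 change of -1.07 (-1.55 to -0.61) at 72 h, and was thus highest at 30 m and below its 0 m level from 16 h on.

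Another 4 of the 8 strongest loops kept or gained H3K27ac contact. From an INTS11 intron to the promoter of CPTP and INTS11, the latter the endonuclease of the Integrator complex, H3K4me3 contact went from 90.5 to 43.7 and H3K27ac from 57.9 to 94.5 (log2 0.71, 0.45 to 0.96). From an SLC25A23 exon to the promoter of SLC25A23 and CRB3, a protein of apical cell polarity, H3K4me3 went from 72.2 to 36.0 and H3K27ac from 17.6 to 28.9 (0.72, 0.25 to 1.19). From a CASKIN2 intron to the promoter of CASKIN2 and TSEN54, a subunit of the tRNA splicing endonuclease, H3K4me3 went from 71.1 to 33.5 and H3K27ac from 8.52 to 17.6 (1.05, 0.40 to 1.73). At SIRT7, a nuclear deacetylase, H3K4me3 went from 69.9 to 33.8 and H3K27ac from 16.2 to 18.4 (0.19, -0.34 to 0.73). The first 3 were higher in H3K27ac beyond counting error and SIRT7 was not.

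**Figure D5:**
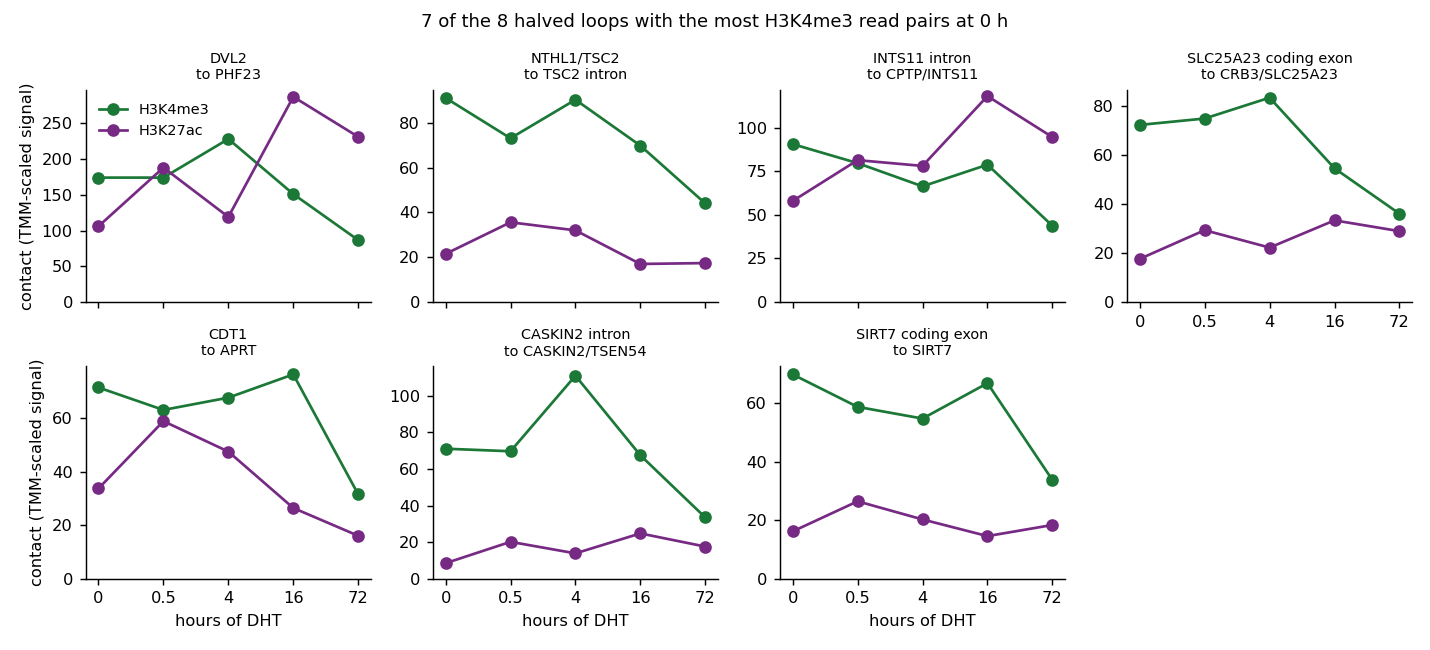
Contact (TMM-scaled signal, 1 value per point, no replicates) at 5 times of DHT for 7 of the 8 halved loops with the most H3K4me3 read pairs at 0 h, with H3K4me3 in green and H3K27ac in purple. Every green line is lowest at 72 h, while the purple line of the loop from DVL2 to PHF23 climbs from 106 to 231 and that from CDT1 to APRT drops from 33.8 to 16.1.

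The loops with the lowest upper bounds were longer and thinner. The loop between ARID1A, a subunit of the BAF chromatin remodelling complex, and ZDHHC18, a palmitoyltransferase, spans 130 kb (chr1:27022001-27023000 and chr1:27152001-27153000). It had 16, 6, 39, 6 and 1 H3K4me3 read pairs over the 5 times, as contacts 4.51, 2.05, 3.09, 1.16 and 0.275, a ratio of 0.0609 (0.00145 to 0.392), while its H3K27ac read pairs were 12, 11, 11, 19 and 13. Its H3K27ac change at 72 h was -0.04 (-1.29 to 1.22).

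A better counted loop of this kind lies on chromosome 11. It joins the promoters of HRAS, a small GTPase of growth signalling, and LRRC56 with those of RASSF7, a Ras-association domain protein, and LMNTD2, 25 kb apart. It held 80, 35, 208, 61 and 25 H3K4me3 read pairs, as contacts 22.6, 12, 16.5, 11.8 and 6.87, with a ratio of 0.305 (0.186 to 0.482). H3K27ac contact was 7.64, 9.18, 10.3, 8.07 and 7.10, a log2 change of -0.10 (-0.94 to 0.73). At KCTD10 and UBE3B, a ubiquitin ligase, a 50 kb loop to a MYO1H intron held 37, 31, 69, 54 and 8 read pairs (ratio 0.211, 0.0848 to 0.460). A further 4 of the 8, at HCST and NFKBID, at PCGF2 and PSMB3, at MRPS36 and at an unnamed gene beside TMEM63C, had 15 to 27 read pairs at 0 m and 1 to 5 at 72 h.

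Halved loops with enough H3K27ac read pairs spanned a wide range of H3K27ac change. The 5 largest gains included 2 loops outside coding genes, on chromosomes 7 (log2 2.21, 1.67 to 2.80) and 16 (2.16, 1.53 to 2.84). The rest were at EFL1 and SAXO2 (2.0, 1.18 to 2.91), from TREX1, a DNA exonuclease, to a PFKFB4 intron (1.68, 0.96 to 2.45) and at PRDM15, a zinc finger regulator (1.66, 1.20 to 2.13). At PRDM15 the H3K4me3 contact was 19.2, 15.4, 48.2, 12 and 8.80 and the H3K27ac contact 15.3, 44.8, 15.4, 57.1 and 48.2, so H3K4me3 was highest at 4 h and H3K27ac at 16 h. The 5 largest losses included a loop outside coding genes on chromosome 8 (-3.16, -6.32 to -1.07). The rest were from PPP1R35 to TSC22D4 (-2.41, -4.42 to -0.82), from GRIN3B to TMEM259 (-2.16, -4.20 to -0.53), from PLEC to EXOSC4 (-2.10, -3.68 to -0.76) and at YTHDF1, a reader of methylated RNA (-2.07, -4.12 to -0.42). Those 5 held 15 to 23 H3K27ac read pairs at 0 m and 2 to 6 at 72 h.

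Halved loops touched the promoters of 2342 of the 10233 coding genes with an eligible loop (22.9%), mostly with 1 loop each: 1892 genes had 1, 365 had 2, 65 had 3, 15 had 4 and 5 had 5. The promoter shared by NDUFA11, a subunit of respiratory complex I, and VMAC had 5 halved loops of 15 eligible, 35 to 180 kb long. Their summed H3K4me3 contact was 38.4, 30.1, 37.4, 29.4 and 16.8, and their H3K27ac contact 12.3 at 0 m and 18.2 at 72 h (log2 0.56, -0.02 to 1.15). Other, unnamed gene models share this window and its counts. The other 72 loops of this promoter changed by -0.21 (-0.38 to -0.05) in H3K4me3 at 72 h.

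PUF60, a splicing factor, had 5 halved of 12 eligible loops, with summed H3K4me3 contacts of 32.7, 21.5, 34.5, 20.5 and 11.8. The shared promoter of CASKIN2 and TSEN54 had 4 of 11 (103, 94.6, 148, 86.8 and 47.3), TMEM80 4 of 6 (55.6, 36.5, 53.9, 43.5 and 23.6), NUBP2, an iron-sulfur cluster assembly factor, 4 of 12 (38.4, 27.3, 33.0, 23.8 and 16.5) and USP4, a deubiquitinase, 4 of 5 (31.9, 23.2, 25.1, 32.1 and 13.5). LSS, the lanosterol synthase of cholesterol synthesis, and SNAPC4, a subunit of the complex that drives small nuclear RNA genes, were picked after their values were seen. LSS was the only gene with at least 3 halved loops whose eligible loops were all halved, 4 of 4. H3K27ac at 72 h was higher in the loops of CASKIN2 and TSEN54 (0.92, 0.40 to 1.45), and the intervals included 0 for PUF60, TMEM80, NUBP2, USP4 and LSS. For SNAPC4, 4 of 5 eligible loops were halved and the H3K27ac change was -0.84 (-1.49 to -0.20).

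Other loops at these promoters are described by the same change. The 5936 other eligible loops of promoters with a halved loop changed by -0.37 (-0.38 to -0.36) in H3K4me3 at 72 h, beside -0.29 for all 22834 eligible loops that were not halved. All 52564 other loops of these promoters, eligible or not, changed by -0.24, against -0.09 for 169054 loops of promoters without a halved loop, sets that differ in their share of eligible loops. These are changes between the libraries that the rule used, so they are a description of the neighbourhood. H3K27ac changed by 0.38 (0.37 to 0.40) in the 5936 eligible loops, beside 0.43 in all 22834, by 0.28 (0.27 to 0.29) in the 52564 loops and by 0.25 (0.25 to 0.26) in the 169054.

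The 2 largest groups of halved loops joined by shared anchors had 12 loops each. 1 of them is described. On chromosome 8 the group ran over 801 kb through PUF60, EPPK1, PLEC, EXOSC4, MAF1, HSF1, BOP1, ADCK5 and VPS28, with summed H3K4me3 contacts of 105, 73.4, 101, 70.6 and 44.8 and an H3K27ac change of -0.13 (-0.48 to 0.22). PLEC encodes the cytolinker plectin and HSF1 the heat shock transcription factor. The next group, 9 loops over 516 kb of chromosome 19 (chr19:922001-1438000), runs through TMEM259, POLR2E, ATP5F1D, MIDN, CIRBP and RPS15. Its summed H3K4me3 contact was 131, 99.7, 142, 95.3 and 60.5 and its H3K27ac contact 143, 225, 138, 177 and 171, a change of 0.26 (0.09 to 0.43). H3K4me3 was lower at 72 h in both by the rule. Under the deposited scaling the interval of the H3K27ac change lay above 0 on chromosome 19 and included 0 on chromosome 8. Over all loops of the set H3K27ac was itself higher by 0.25 at 72 h. Equal totals would take this off both changes, and neither call would hold.

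Androgen-responsive genes are given as counts. Of 31 androgen-induced genes 20 had an eligible loop, and of these 1 had a halved loop, HOMER2, whose 150 kb loop had H3K4me3 contacts of 4.79, 3.42, 3.41, 6.38 and 1.65. Of 89 hallmark androgen response genes in the study's list 69 had an eligible loop. Of these, 16 (23.2%) had a halved loop, beside 22.9% of all coding genes with an eligible loop, among them ADRM1, APPBP2, CCND1, GNAI3, GSR, HERC3, HOMER2, HSD17B14, INSIG1, PA2G4, RAB4A, RPS6KA3, RRP12, SLC38A2 and XRCC6. INSIG1 restrains sterol synthesis, and its 15 kb loop, named after its values were seen, had H3K4me3 contacts of 6.20, 6.15, 6.18, 3.87 and 2.47. Of 13 androgen-repressed genes 2 had an eligible loop and none a halved one, and of 7 luminal regulators with an eligible loop GRHL2 had one.

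Immediate early and cell cycle genes had halved loops at shares based on few genes. Of 11 immediate early genes with an eligible loop, which respond to growth signals within minutes, 4 (36.4%, beside the 22.9% of coding genes with an eligible loop) had one: EGR1, FOSB, IER2 and JUND. EGR1 had 2 of 4, with summed H3K4me3 contacts of 20, 14.7, 21.0, 18.2 and 8.52 and an H3K27ac change of 0.90 (0.31 to 1.52). The changes at the others had intervals that included 0, at 2.43 (-0.62 to 7.95) for FOSB, -0.74 (-1.93 to 0.39) for IER2 and 0.25 (-0.43 to 0.93) for JUND. Of 23 cell cycle and replication genes with an eligible loop, 6 (26.1%) had one: CCND1, CDK1, CDK4, MCM2, MCM3 and TOP2A, with 1 loop each. The H3K27ac changes of these 6 ranged from -1.97 to -0.48, each with an interval that included 0.

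Gene families taken by symbol lay between 11.1% and 28.6%, beside the 22.9% of coding genes with an eligible loop, and are likewise given over genes with an eligible loop. Of ribosomal protein genes 22 of 77 (28.6%) had a halved loop, of oxidative phosphorylation genes named by symbol prefix 20 of 80 (25%), of ZNF genes 99 of 390 (25.4%), of histone genes 7 of 44 (15.9%) and of HOX genes 1 of 9 (11.1%), HOXC5. RPL7A had the strongest of the ribosomal loops, over 10 kb, with H3K4me3 contacts of 38.4, 31.1, 37.9, 31.1 and 18.7 and an H3K27ac change of -0.73 (-1.39 to -0.08). RPS28 and NDUFA7 share a promoter window with 3 halved of 8 eligible loops (17.8, 13.7, 14.8, 11.2 and 7.70). ATP5F1D, the delta subunit of ATP synthase, had 3 of 9 (61.5, 50.6, 75.3, 47.7 and 29.1). The histone genes H2AC12, H2AC17, H2BC12, H2BC17 and H3C12, share a single loop of 750 kb, so they count as 1 observation.

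The limit of 0.5 cut through a continuous range. Within 0.01 of it lay 44 halved loops on the inside and 142 eligible loops on the outside. The strongest inside were those of DVL2 with PHF23 (ratio 0.497), SLC25A23 with CRB3 (0.499), ACADVL with DLG4 (0.492) and ATP5F1D with MIDN (0.493). The strongest outside were at ARFRP1 and ZGPAT (0.503), TAX1BP3 and EMC6 (0.504), AHCY (0.504) and MCMBP (0.502). Loops called only in the H3K27ac set gave a similar share: of 9598 with at least 15 H3K4me3 read pairs at 0 m, 881 (9.18%, 8.61 to 9.77) had an H3K4me3 ratio of 0.5 or less.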

How the data were processed

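LNCaP HiChIP with H3K27ac and H3K4me3 antibodies was analysed from 10 deposited tables, 1 per mark and time point, that list the same loops. The authors cut chromatin with MboI, trimmed reads with Trim Galore 0.5.0, aligned them to hg19 with Bowtie2 in HiC-Pro 3.1.0, kept mapping quality of 20 or more, and called loops with FitHiChIP in 5 kb bins at distances up to 3 Mb and q-values under 0.01 on the merged libraries of each mark. The deposited signal is contact from binned maps, which the authors scaled with TMM. In each file 100% of values were whole multiples (tolerance 1e-06) of the smallest value, taken as 1 read pair. Whether both H3K27ac replicates entered a value is not stated in the sources used here. With 1 value per loop, mark and time point, no count test between replicates could be made.

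Loops of the second block of rows form the H3K4me3 set. Changes are log2 ratios of summed contact. Intervals (95%) are exact for ratios of read pairs and for binomial shares. The interval of a difference between 2 sets and of an average over classes comes from the normal approximation. Intervals from read pairs cover counting error only, and those of shares take loops or bins as independent draws. Promoters are 2500 bp on either side of coding gene starts of Gencode release 44 on GRCh37, which matches hg19 (0 loops ran past a chromosome end). The intervals and the rule were also run on simulated counts. The changed loops there were deeper and fell further than most halved loops. How often unchanged or thin loops pass the rule was not recorded. The named loops and genes were those with the most read pairs at 0 m, the lowest upper bounds, the most halved loops per promoter, the largest and smallest H3K27ac changes, the largest joined groups, the loops next to the limit, and the genes of fixed lists, of which the ZNF genes and most members of the larger families are given as counts. Some loops, genes and a sequence are not reported here. The members and lists were chosen with earlier results of these data known. The hallmark list came from the study's source data. Alternatives varied scaling, read pair minimum, ratio limit, loop length, promoter window and the weight of loops. Python 3.11.15, numpy 2.4.6, pandas 2.3.3, scipy 1.17.1, networkx and pysam were used.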

Additional observations from a re-analysis of the deposited data

How the results depend on the processing

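No paired analysis was possible because each time point has 1 value per loop and mark, so no replicate could be left out or paired. Of 65 alternative values for 12 results, 38 held, 20 moved, 6 turned in sign and 1 was weaker. A value held if it kept its direction and its side of 0 or stayed within the main interval. For the number of halved loops, a count of similar size held. The number of halved loops was 1303 with equal totals per library, 444 with at least 30 read pairs, 394 with a ratio of at most 1/3 and 1361 with the interval of the ratio below 1. As a median over loops, the H3K4me3 change was -0.46 at 30 m, -0.29 at 4 h and -0.44 at 16 h. The median H3K27ac change, over loops with any H3K27ac read pair at 0 m, was 0.29, 0.05, 0.10 and 0.09 at 30 m, 4 h, 16 h and 72 h. The H3K27ac change at 4 h was -0.02 (-0.05 to 0.01) in loops of 20 kb or more, so its sign turned but its interval included 0. At a ratio of at most 1/3 it was 0.06, with an interval that reached 0. Chosen after seeing the data, equal totals together with loops of 20 kb or more gave H3K27ac changes of -0.06, -0.10 and -0.08 at 4 h, 16 h and 72 h, which reversed them, and equal totals with the median gave 0.07, 0.02, -0.22 and -0.16 at 30 m, 4 h, 16 h and 72 h. With equal totals the H3K27ac change at 72 h was 0.03 (0.01 to 0.05) in place of 0.28, since that scaling takes 0.25 off every loop. The share halved in H3K27ac was 4.42% with at least 30 H3K27ac read pairs and 13.6% with equal totals, against 8.96% of the other eligible loops under the same scaling. The median length was 20 kb with at least 30 read pairs and 40 kb with 1 loop per joined group. The share with a coding promoter was 60.2% with a window of 1000 bp, 89.6% with the whole bin as anchor and 89.4% in loops of 20 kb or more. The difference in H3K27ac change between halved and other eligible loops stayed below 0 in all 6 alternatives, at -0.17 to -0.08. The cause was not tested for any of these shifts beyond what the alternative itself changes. Depth limits single loops, with a median of 8 read pairs at 72 h.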
